A study of Danio rerio with 4 samples.

Results

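Primitive erythroid cells, the first red blood cells of the zebrafish embryo, arise in the lateral plate mesoderm under the transcription factors Tal1, Lmo2 and Gata1a. Maturing red cells then take up iron through the transferrin receptor, make haem and globin, and place the anion exchanger Band 3 in their membrane, while carbonic anhydrase in the cytoplasm interconverts carbon dioxide and bicarbonate. Erythropoietin, acting through its receptor, Jak2 and Stat5, keeps red cell precursors alive.

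The genes described here are 9 regulators and membrane or enzyme genes of this lineage, chosen by symbol: nfe2, klf3, drl, blf, epor, tfr1a, hemgn, slc4a1a and cahz. 8 of the 9 have a row under that symbol among the 24235 genes of the deposited table. hemgn has none, but the gene ID that carries this symbol today is listed under an older clone name, and its values are given beside the others. RNA of whole embryos at the 6-somite stage was compared between 2 libraries of wild-type AB fish and 2 libraries of npas4l bns297/bns297 embryos, homozygous mutants. npas4l encodes a bHLH-PAS transcription factor needed upstream of tal1 and etv2 for endothelial and blood cells to form. All 4 libraries are of the same stage, grown in the same medium at the same temperature, with no further agent or transgene named. The labels give neither the number of embryos per library nor whether they came from separate clutches. The p-values therefore rest on spread between libraries, mostly pooled over genes, and that spread may be technical. Values are the deposited whole numbers, treated here as normalised read counts. In the wild-type libraries their spacing was that of scaled and rounded counts, with 1 read worth 1.09 and 0.898; in the mutant libraries the spacing gave no clear factor.

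At this stage none of the 8 genes passed the test between mutants and wild type. Of the 5 whose mean value reached 10, the level from which genes were tested, 0 passed limma's adjusted p of 0.05 and 0 had an unadjusted p under 0.05. limma-voom also called 0 of the 5. Over all 16653 genes tested, 8 passed, or 0.048%, and 3.75% had an unadjusted p under 0.05, and a count of 0 among 5 is near that background. The 8 calls were 0.006% of genes higher and 0.042% lower. With no filter on low values 0 of the 8 members passed either, beside 0.0371% of all genes. nfe2 had higher values in each mutant library than in either wild-type one, klf3 had lower values in both, and blf, epor and cahz overlapped between the groups. In the same libraries tal1 stood at 166 and 163 in the wild type, and 13 and 8 in the mutants. Its log2 fold change of -3.88 ± 0.40 (SE) passed with a limma adjusted p of 3.27e-11, and with a limma-voom adjusted p of 0.0421. The 95% interval of that change, -4.68 to -3.09, shares no value with the interval of any tested member. tal1 was among the 8 genes that passed, so this contrast does not show that the members were unchanged. The interval of gata1a, another erythroid regulator, ran from -3.50 to 0.79 and overlaps that of every tested member.

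**Figure D1:**
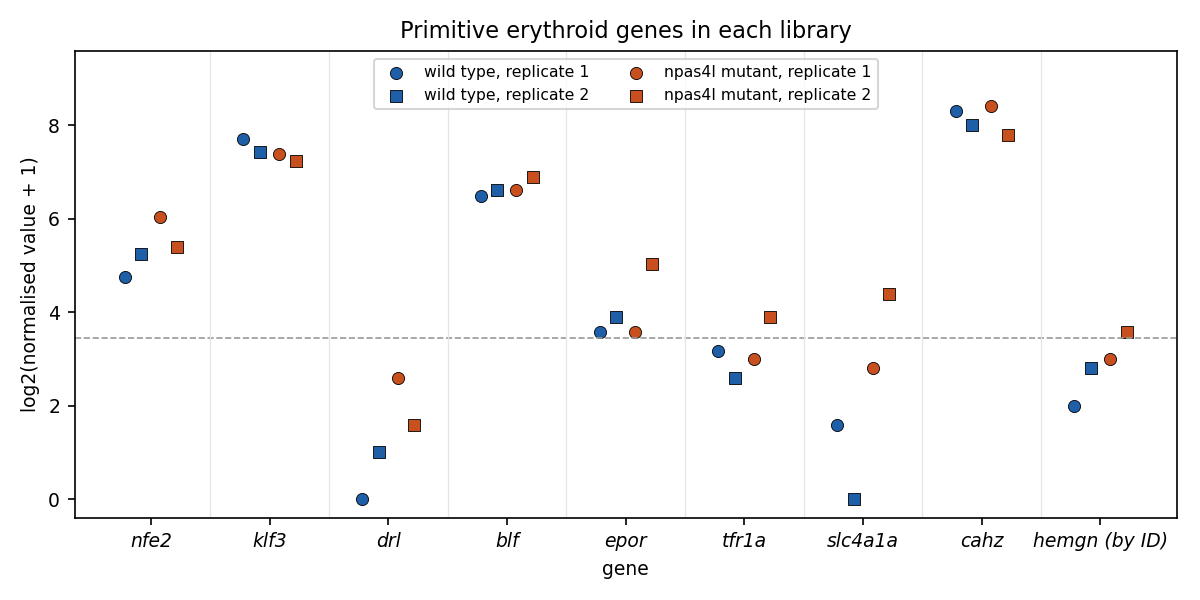
Normalised values, as log2(value + 1), of the 8 genes and of hemgn, found by its gene ID, in each of the 4 libraries (blue, wild type; orange, npas4l mutant; circles, replicate 1; squares, replicate 2). The dashed line marks a value of 10: nfe2, klf3, blf, epor and cahz lie above it in every library, while drl lies under it in all 4.

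Mutant replicate 2 stood apart at both ends of the range of values. The genes at 0 numbered 299 there and 2444 to 3000 elsewhere, although its values summed to 7272902, the lowest of the 4 (7984958 to 8237748 in the others). It was the highest library for 63.6% of genes with a mean value of 6 to 10 and for 56.4% of those with a mean of 10 to 20. Among genes with a mean of 200 to 500 it was the highest for 7.8% and the lowest for 50.5%. These shares are given because the members fall on both sides of this range. Leaving this library out, 22 genes passed in place of 8, and leaving out mutant replicate 1, 277 passed. None of the tested members was among them in either case.

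Whole embryos hold many tissues besides blood. The summed values of 5 neural plate genes were 3488 and 3586 in the wild type, and 3749 and 3245 in the mutants, and those of 6 somite genes were 2722 and 2883 against 2717 and 2358. Sums of 6 notochord and endoderm rows (1357 and 1348 against 1215 and 1153) and 7 epidermal rows (63353 and 63500 against 64120 and 53334) were also high in every library, and 0 genes of these 4 lists passed. Globins, the defining products of red cells, had low values. Of 15 embryonic and adult globin genes looked for, 6 had a row, so their sum may leave out part of the globin RNA. The 6 summed to 25 and 16 in the wild type, and to 25 and 36 in the mutants. Of these, 4 were at 0 in at least 1 library, and hbae3 was the highest, at 6 to 17. The sources used here do not say how reads matching more than 1 globin gene were counted. gata1a, the master regulator of the erythroid programme, stood at 14 and 20 in the wild type, and 3 and 11 in the mutants. Its log2 fold change, -1.36 ± 1.08, did not pass (limma adjusted p of 1). In such samples fewer cells of a type and less RNA per cell cannot be told apart, and which cells gave the RNA of a gene expressed in several tissues is not known.

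nfe2 (ENSDARG00000020606, chromosome 23, 36212611 to 36217549, minus strand, GRCz10) encodes the large subunit of NF-E2, a bZIP factor that pairs with small Maf proteins and, in mammals, binds the globin locus control region. Its values were 26 and 37 in the wild type, and 65 and 41 in the mutants. Both mutant libraries were higher than both wild-type libraries, mutant replicate 2 by only 4 units over the nearer wild-type library. The log2 fold change was 0.72 ± 0.41 (SE; 95% interval -0.11 to 1.54) with a limma adjusted p of 1. Against the wild-type mean, mutant replicate 1 gave 1.04 and mutant replicate 2 gave 0.39. nfe2 lies within the span of lima1a on the opposite strand, an actin-binding protein gene with values of 499 and 526 in the wild type, and 480 and 412 in the mutants. The sources used here do not say whether the counting used strand, so reads of nfe2 and lima1a may not have been kept apart. The log2 fold change of lima1a was -0.20, and its part in the values of nfe2 was not tested. For 13.3% of all genes tested each mutant library exceeded each wild-type library, so the order seen in nfe2 is common in these data.

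klf3 (ENSDARG00000015495, chromosome 1, 17586972 to 17922126, minus strand) encodes a Krüppel-like zinc finger protein that, in the mouse, represses genes at the CACCC boxes also used by the erythroid activator Klf1. Its values were 208 and 171 in the wild type, and 167 and 150 in the mutants. Both mutants were lower, mutant replicate 1 by 4 units, an order found in 16.1% of the genes tested. The log2 fold change was -0.25 ± 0.20 (95% interval -0.66 to 0.15, limma adjusted p of 1). It was -0.11 without wild-type replicate 1 and -0.39 without wild-type replicate 2, and the interval spans ratios of mutant to wild type from 0.634 to 1.11. The annotated span of klf3 covers or overlaps 3 other genes on the same strand, fam114a1, klhl5 and mtnr1aa. fam114a1 had 253 and 244 in the wild type, and 261 and 256 in the mutants. klhl5 had 19 and 13 in the wild type, and 11 and 13 in the mutants, with a log2 fold change of -0.37, and mtnr1aa did not exceed 8. Whether reads of these genes were counted for klf3 was not tested. At means of 100 to 200, where klf3 lies, mutant replicate 2 was the lowest library for 34.9% of genes. The part of this in the values of klf3 was also not tested.

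blf (ENSDARG00000043126, chromosome 22, 9887325 to 9894381, plus strand) encodes the zinc finger protein Bloody fingers, named for its expression in blood precursors of the zebrafish. Its values were close together, 89 and 97 in the wild type, and 97 and 118 in the mutants, and the groups met at 97. The log2 fold change was 0.20 ± 0.25 (95% interval -0.30 to 0.71, limma adjusted p of 1). It was 0.06 without mutant replicate 2 and 0.34 without mutant replicate 1. Ratios of mutant to wild type below 0.811 and above 1.63 lie outside the interval. It was the narrowest within wild type of the 8 genes, where the higher library exceeded the lower by a ratio of 1.09.

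drl (ENSDARG00000078004, chromosome 5, 60960435 to 60967533, minus strand) encodes the zinc finger protein Draculin, whose regulatory sequences are widely used to mark lateral plate mesoderm in zebrafish. It was listed at 0 and 1 in the wild type, and 5 and 2 in the mutants, the lowest mean of the 8. With no filter on low values its log2 fold change was 1.58 ± 1.74 (95% interval -1.84 to 5.01, limma adjusted p of 0.984), an interval too wide to give a direction. Draculin belongs to a tandem family of similar zinc finger genes. In the same cluster and on the same strand, drll.1 (listed as si:dkey-261j4.3) had 3 and 3 in the wild type, and 6 and 6 in the mutants. drll.3 (listed as si:dkey-261j4.5) had 89 and 101 in the wild type, and 116 and 121 in the mutants. drl, drll.1 and drll.3 each had higher values in both mutant libraries, an order found in 15.6% of all genes in the table, and the first 2 had mean values under 5. drll.3, the one above the level tested, gave 0.32 ± 0.25 for its log2 fold change (limma adjusted p of 1). A further gene of the stretch, AL935280.1, overlapped between the groups, at 44 and 37 in the wild type, and 32 and 51 in the mutants. The sources used here do not say how reads matching several copies were counted, so the split among these genes is uncertain. Whether reads of blf, also a zinc finger gene, matched other genes was not tested.

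epor (ENSDARG00000090834, chromosome 3, 14394007 to 14414315, plus strand), the receptor of erythropoietin, stood at 11 and 14 in the wild type, and 11 and 32 in the mutants. Only mutant replicate 2 exceeded the wild type, and mutant replicate 1 equalled the lower wild-type library. The log2 fold change was 0.57 ± 0.79 (95% interval -1.01 to 2.15, limma adjusted p of 1), and without mutant replicate 2 it was -0.16. tfr1a (ENSDARG00000101322, chromosome 2, 5008604 to 5034301, minus strand), the transferrin receptor that brings iron into zebrafish red cells, stood at 8 and 5 in the wild type, and 7 and 14 in the mutants. The groups overlapped, and mutant replicate 2 was again the highest library. With no filter the log2 fold change of tfr1a was 0.58 ± 1.03 (95% interval -1.45 to 2.60, limma adjusted p of 0.987). The raised low values of mutant replicate 2 move with both genes, and their part in these values was not tested.

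slc4a1a (ENSDARG00000012881, chromosome 3, 19915692 to 19944785, minus strand) encodes Band 3, which exchanges chloride for bicarbonate and anchors the red cell skeleton. It was listed at 2 and 0 in the wild type, and 6 and 20 in the mutants. Both mutant libraries were higher, replicate 2 the most. With no filter its log2 fold change was 2.81 ± 1.39 (95% interval 0.086 to 5.53), with an unadjusted p of 0.0432 and a limma adjusted p of 0.984, so it did not pass. Mutant replicate 1 alone was 2.01 above the mean of the wild type on the log2(value + 1) scale. This rests on a value of 6 against 2 and 0, where the added 1 weighs heavily. At the mean value of slc4a1a, 7, mutant replicate 2 was the highest library for most genes, as given above. The part of this in the value was not tested. slc4a1b, a second slc4a1 gene chosen after its values were seen, was at 41 and 24 in the wild type, and 19 and 24 in the mutants. Its groups overlapped, with a log2 fold change of -0.54 ± 0.55.

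cahz (ENSDARG00000011166, chromosome 2, 29493850 to 29501875, minus strand), a cytosolic carbonic anhydrase of zebrafish red cells, had values of 316 and 257 in the wild type, and 341 and 220 in the mutants. The mutant libraries were the highest and the lowest of the 4, with the wild type between them. The log2 fold change was -0.06 ± 0.18 (95% interval -0.42 to 0.31, limma adjusted p of 1), and its sign depended on the library left out, at 0.26 without mutant replicate 2 and -0.37 without mutant replicate 1. It was also 0.09 without wild-type replicate 1. At means of 200 to 500, where cahz lies, mutant replicate 2 was the lowest library for 50.5% of genes. Mutant replicate 1 was the highest for 30.9% of them. The part of this in the values of cahz was not tested. hemgn, which encodes Hemogen, a nuclear protein of red cell precursors in mammals, was listed at 3 and 6 in the wild type, and 7 and 11 in the mutants (ENSDARG00000096667, listed as si:dkey-25o16.2). Both mutants were higher, mutant replicate 1 only at 7 against 6 in wild-type replicate 2, at values too low for the test. The gene overlaps trmo on the opposite strand, which had 29 and 13 in the wild type, and 15 and 24 in the mutants. The part of trmo in the values of hemgn was not tested.

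**Figure D2:**
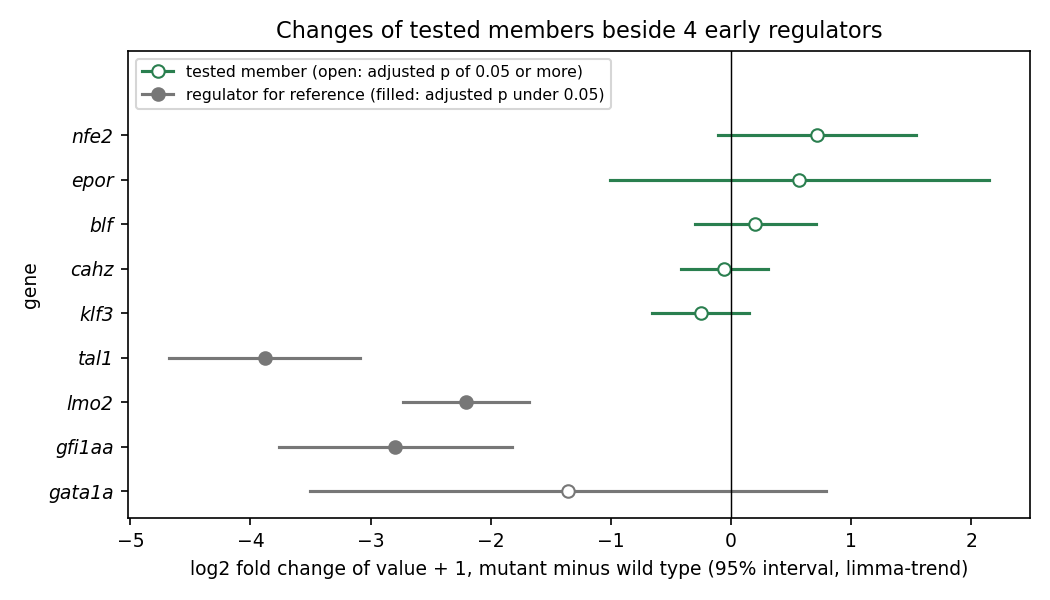
Log2 fold change of value + 1, mutant minus wild type, with its 95% interval from limma-trend, for the 5 tested members (green) and for tal1, lmo2, gfi1aa and gata1a (grey); filled points passed at an adjusted p under 0.05. Every green interval includes 0, as does that of gata1a, while those of tal1, lmo2 and gfi1aa lie between -4.68 and -1.68.

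Counted together, 4 of the 8 genes had groups that did not overlap, nfe2, drl and slc4a1a higher and klf3 lower. Over all genes in the table the share was 27.8%, with 15.6% higher and 12.2% lower. 2 of the 4 members had mean values of 7 or less. Among the 5 tested genes the count was 2, against 29.4% of all genes tested. These counts were not tested and are not a result about the members. The median log2 fold change of the 5 was 0.20, beside -0.02 over all genes tested. It was 0.06 without mutant replicate 2, 0.34 without mutant replicate 1, and -0.06 over the 3 members whose mean value reached 50. The values of the 8 genes summed to 660 and 582 in the wild type, and to 699 and 597 in the mutants. The group means, 621 ± 55.2 and 648 ± 72.1 (SD, n = 2 each), differed by 27, less than the spread within either group. The sign of that difference depended on the library left out: it was -12 without wild-type replicate 2, -24 without mutant replicate 1, 66 without wild-type replicate 1 and 78 without mutant replicate 2.

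**Figure D3:**
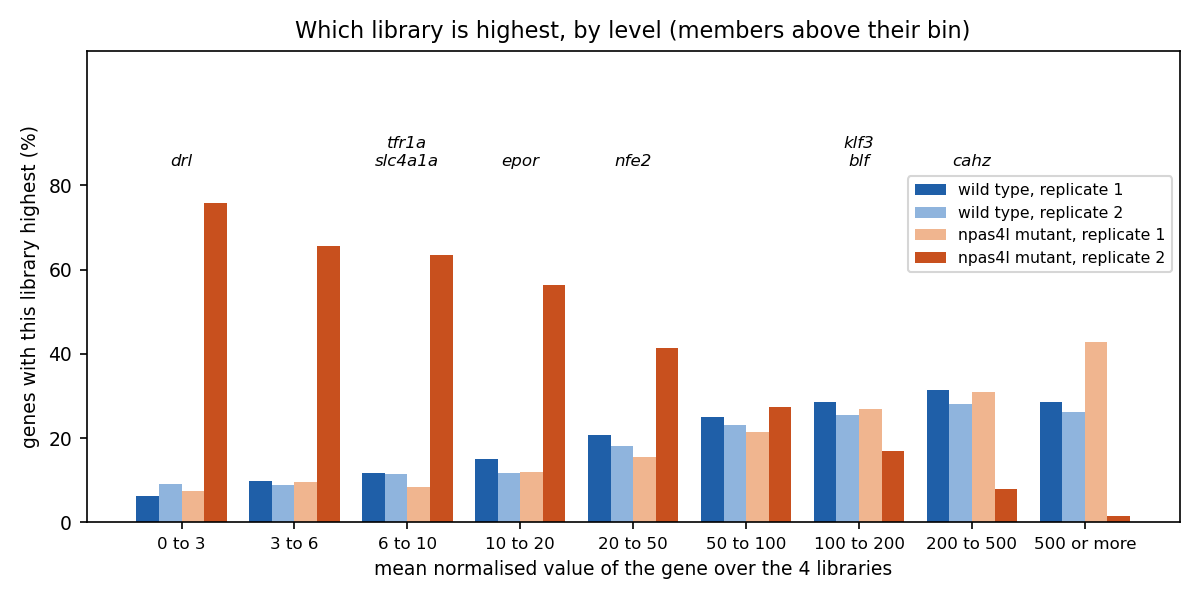
Share of genes for which each library held the single highest value, in bins of the mean normalised value over the 4 libraries, with the members written above their bin. Mutant replicate 2 (dark orange) was highest for 75.8% of genes with a mean under 3 and for 1.61% of those at 500 or more; epor, tfr1a and slc4a1a, all highest in that library, lie in bins where it led in 56.4% to 63.6% of genes, and blf, also highest there, in the bin from 100 to 200, where it led in 16.9%.

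The genes whose profiles over the 4 libraries lay nearest to nfe2 and klf3, the members with the smallest p in each direction, were found by Euclidean distance after each gene's mean was subtracted on the log2 scale. Nearest to nfe2 were si:dkeyp-110g5.4 at 0.069, chsy3 at 0.072 and adcy6a at 0.092. chsy3, for example, had 27 and 37 in the wild type, and 69 and 41 in the mutants. Nearest to klf3 were sp3a at 0.0089, serpinh1b at 0.020 and camkk1a at 0.026. With only 4 libraries many genes come close: 33 lay within 0.25 of nfe2 and 1990 within 0.25 of klf3.

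Of the other transcription factors of the erythroid programme, 3 of 18 tested fell, 0 rose and 15 did not pass. Over all genes tested 0.042% were called lower. The list was chosen with earlier results of these data known, so this count is not a result about the programme. The median log2 fold change of the 18 was -0.16. lmo2, the LIM-domain partner of Tal1, stood at 210 and 211 in the wild type, and 61 and 33 in the mutants (-2.20 ± 0.26, limma adjusted p = 8.49e-09). gfi1aa, a repressor gene of early blood, stood at 73 and 92 in the wild type, and 12 and 10 in the mutants (-2.79 ± 0.49, limma adjusted p = 4.07e-04), a call that was lost with limma-voom (adjusted p = 0.516, range over all alternatives 9.04e-05 to 1) and without either wild-type library. The third was tal1.

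Nfe2 acts with small Maf proteins and competes with Bach factors for the same sites. Of 13 tested partners and relatives 0 passed, with a median of -0.12. The 2 with the smallest p were bach2a, a repressor, at 135 and 169 in the wild type, and 113 and 101 in the mutants (-0.50 ± 0.23), and the relative nfe2l3, at 571 and 576 against 487 and 483 (-0.24 ± 0.15). Of 17 other Krüppel-like genes 0 passed, with a median of -0.03. klf2a, a gene better known from endothelium, was at 50 and 45 in the wild type, and 72 and 78 in the mutants (0.65 ± 0.33), and klf13 at 216 and 224 against 194 and 165 (-0.30 ± 0.19).

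In Epo signalling, 0 of 12 tested genes passed and the median was -0.06. stat5a, a signal transducer of the receptor, stood at 170 and 172 in the wild type, and 101 and 127 in the mutants. Both mutants were lower, with a log2 fold change of -0.59 ± 0.22, an unadjusted p of 0.00911 and a limma adjusted p of 1. This was the smallest p of the 12. Of all genes tested, 3.75% had an unadjusted p under 0.05 and 16.1% were lower in both mutants. stat5b, a relative chosen after its values were seen, was at 198 and 313 in the wild type, and 229 and 249 in the mutants (-0.06 ± 0.19). grb2a, an adaptor of receptor tyrosine kinases, had 57 and 35 in the wild type, and 54 and 77 in the mutants. Of 11 tested genes of iron uptake and storage 0 passed, with a median of -0.04. tfa, which encodes transferrin, the ligand of Tfr1a, was at 4933 and 5393 in the wild type, and 5070 and 4332 in the mutants, and fth1b, a ferritin heavy chain gene, at 23 and 14 against 6 and 15. tfr1b, a second transferrin receptor gene chosen after its values were seen, was at 170 and 181 in the wild type, and 186 and 195 in the mutants. fth1a, a second ferritin heavy chain gene chosen in the same way, was at 2872 and 2617 in the wild type, and 3254 and 2374 in the mutants.

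Haem synthesis genes gave 0 of 14 past the test and a median of -0.0026. slc25a38b, a mitochondrial carrier related to the glycine importer of haem synthesis, had 88 and 57 in the wild type, and 43 and 48 in the mutants, and alad, the second enzyme of the pathway, had 56 and 58 against 59 and 94. The 1 globin gene that reached the level tested, hbae3, stood at 17 and 7 in the wild type, and 6 and 10 in the mutants. Of 11 tested genes of the red cell membrane and its skeleton 0 passed, with a median of 0.32. In mutant replicate 1 the median was 0.01, and in mutant replicate 2 it was 0.32. 6 of these 11 were highest in mutant replicate 2, among them the ankyrin gene ank1b (9 and 2 in the wild type, 9 and 37 in the mutants) and the protein 4.1 gene epb41b (19 and 13 in the wild type, 17 and 58 in the mutants). In both, only that library was above the wild type, as in epor. Mutant replicate 2 was highest for 56.4% of genes with a mean of 10 to 20, where ank1b lies. For means of 20 to 50, where epb41b lies, the share was 41.5%. Over all genes tested it was highest for 4359 of 16653. The part of low values in the membrane count was not tested.

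Relatives of the membrane and enzyme members gave the same count. Of 9 other Slc4 transporter genes 0 passed, with a median of 0.02. slc4a2a, an anion exchanger of many tissues, was at 96 and 107 in the wild type, and 135 and 136 in the mutants (0.42 ± 0.24, limma adjusted p of 1), and slc4a4b, a bicarbonate cotransporter gene, at 33 and 55 against 17 and 44. Of 6 other carbonic anhydrase genes 0 passed, with a median of 0.12. ca9, a cell-surface carbonic anhydrase gene chosen after its values were seen, stood at 105 and 136 in the wild type, and 195 and 123 in the mutants.

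**Figure D4:**
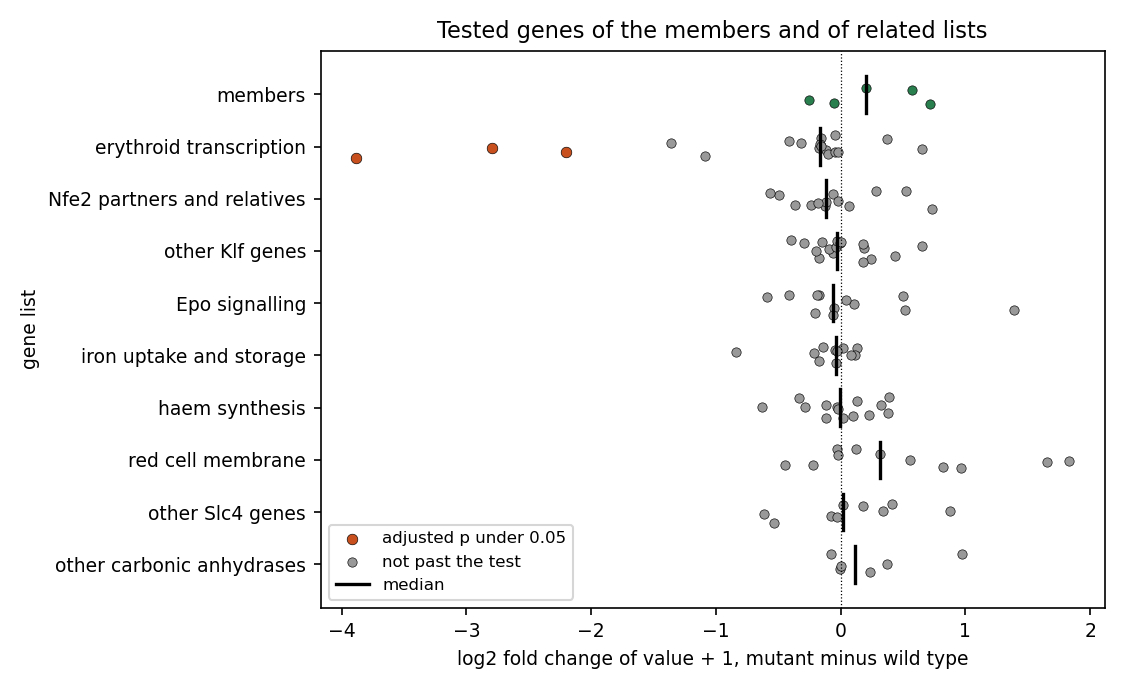
Log2 fold change of value + 1, mutant minus wild type, of each tested gene in the members' row (green) and in 9 related lists; vertical strokes are medians and orange points passed at an adjusted p under 0.05. The 3 orange points, tal1, gfi1aa and lmo2, lie in the erythroid transcription list, and the red cell membrane median is 0.32.

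Among further tissue lists, lateral plate mesoderm had 0 of 13 tested genes past the test (median 0.0026), hatching gland 0 of 8 (median -0.27) and primitive myeloid cells 0 of 5 (median 0.11). Of 15 tested endothelial genes 1 fell, etv2, which encodes an ETS factor of early endothelium, from 294 and 244 in wild type to 127 and 86 in mutants (-1.35 ± 0.21, limma adjusted p = 2.50e-05; 0.145 without wild-type replicate 1), and the median was -0.05. Over all genes tested 0.042% were called lower. Taken singly, the mutant libraries gave endothelial medians of opposite sign, -0.28 for replicate 1 and 0.45 for replicate 2. The median of -0.05 therefore does not show that these genes were unchanged. Replicate 2 of the mutants held the highest value for 8 of the 15, and the part of its raised low values was not tested. The endothelial list was also chosen with earlier results of these data known, so its count is not a result about endothelium. The part of these tissues in the values of the members was not tested.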

How the data were processed

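The deposited table holds 1 value per gene and library. STAR 2.4.0a, featureCounts 1.4.5-p1 and DESeq2 are named in the submitters' processing notes, as are the builds danRer10 and GRCz10, with no settings. The deposited values are a score, taken here as counts scaled and rounded by the authors. The spacing of values shows this in the wild-type libraries (5 whole numbers from 6 to 60 are missing in replicate 1) and gave no clear factor in the mutants. Per the labels' protocols, 10 ng of total RNA per library was made into stranded libraries and read as single reads of 75 bases.

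Values were tested as log2(value + 1) by limma-trend (limma 3.58.1, R 4.3.3) over genes with a mean of at least 10, group as the only term, with Benjamini-Hochberg adjustment over all 16653. Standard errors rest mostly on spread pooled over genes (83.6 prior degrees of freedom). Members and lists were chosen with earlier results of these data known. Outside the members, the list genes that passed were named, with tal1, lmo2, gata1a and gfi1aa. Also named were the 2 smallest p-values per list of erythroid regulators, signalling, iron, haem, globin or membrane genes. Genes overlapping members, clustered with drl or nearest in pattern were added. tfr1b, ca9, slc4a1b, fth1a and stat5b were chosen after their values were seen. So were drll.1, AL935280.1 and lima1a and the other overlapping genes. Where 3 libraries remained, the variance of tied genes was taken from the trend of untied ones. Python 3.11.15 and Matplotlib 3.10.9 drew the figures. The code was tested on simulated data, with large changes placed only in genes with a mean of at least 50. The simulation held no deviation that changed with level, as in mutant replicate 2. It therefore does not show how the test performs on low genes or small changes.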

Additional observations from a re-analysis of the deposited data

How the results depend on the processing

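No tested member was called under any of the 13 alternatives, and nfe2, klf3 and blf kept their sign in all that tested them (nfe2 0.39 to 1.04, klf3 -0.39 to -0.11, blf 0.06 to 0.34). The sign of cahz turned with limma-voom (0.019) and quantile normalization (0.0036) and ran from -0.37 to 0.26 with each library left out; that of epor ran from -0.16 to 1.3. The members' median was 0.57 with no filter, which adds the 3 low genes, and -0.057 over members with a mean of at least 50 (0.06 to 0.34 leaving out libraries). Members whose groups did not overlap numbered 4 and 1 in the same 2 settings, and 2 to 5 leaving out libraries. Over all genes the share was 27.8% with no filter and was not computed for the other settings. Leaving out a library can only add genes without overlap, so those counts are not a result about the members. The difference of the summed values ran from -24 to 78 leaving out libraries and was 48.2 and 49.2 under the first 2 scalings named next. Over all genes, upper-quartile scaling called 14 (2 higher, 12 lower) and scaling to totals that leave out haemoglobin, mitochondrial and ribosomal RNA genes 15 (2 higher, 13 lower); 2 were higher with a mean of at least 50 and with quantile normalization; leaving out libraries gave 6 to 277, 2 to 27 higher and 4 to 250 lower. The cause was not tested. The replicate block called 9 genes and 0 members. Deviations of same-numbered libraries correlated at 0.00896 over the genes tested. This value cannot decide whether those libraries were paired, because the deviation within the mutants changed with level. The median log2 difference, mutant replicate 2 minus replicate 1, was 0.737 at means of 10 to 20 and -0.204 at 500 or more. Low values limit drl, tfr1a, slc4a1a and epor most.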
